A study of Mus musculus with 18 samples.

Results

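Vehicle-treated ED1SQ4 cells, a line of mouse lung cancer cells, were sorted by DNA content, and the RNA of the 4N cells was compared with that of the 2N cells. The comparison was chosen by the sample labels, which assign 3 columns to vehicle 2N and 3 columns to vehicle 4N cells, 6 of the 18 columns of the series. The line derives from lung tumors of mice that carry a cyclin E transgene, so both populations share that background, and neither received an inhibitor. Cells were kept in vehicle for 72 hours, stained with a dye that binds DNA in living cells, and separated on a sorter. The other columns are unsorted vehicle-treated cells and unsorted, 2N and 4N cells treated with 0.5 μM CYC065, a CDK2/9 inhibitor. The columns are labelled as replicates, but the 3 columns of a condition are parts of 1 library number and differed by no more than sampling noise, with a chi-square per degree of freedom of 1.00 in vehicle 2N and 1.01 in vehicle 4N cells over genes with whole counts. They were summed and counted as 1 sample, so each population has n = 1, no spread between cultures could be measured, and no P value or standard deviation is given.

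A gate on DNA content does not read ploidy alone. Diploid cells before replication carry 2N DNA, and the same cells carry 4N DNA from the end of S phase until they divide. Tetraploid cells before replication carry 4N DNA as well. In an untreated culture the 4N gate can therefore hold diploid cells in G2 and mitosis beside polyploid cells, and these cannot be told apart in bulk RNA of the gate. In bulk samples, a larger share of cells in a phase and more RNA per cell cannot be told apart either. Transcription of the mitotic program begins in S phase and peaks in G2 and mitosis, through promoters that carry CCAAT boxes, bound by NF-Y, and cell cycle homology regions, bound by the DREAM and MuvB complexes. Messages of the clustered histone genes, which lack poly(A) tails, accumulate while DNA is replicated and are degraded when replication ends.

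The summed counts were 57877298 in vehicle 2N, 60028951 in vehicle 4N and 58885917 in unsorted vehicle cells. The line had the expression of mesenchymal rather than epithelial cells: all 12 mesenchymal markers reached 30 counts, with summed levels of 22580 CPM (counts scaled to a common library size) in 2N and 21262 CPM in 4N cells, against 1 of 11 epithelial markers (1.13 and 1.48 CPM) and 2 of 12 lung lineage markers (2.41 and 2.34 CPM). Of 17 leukocyte markers, 2 reached 30 counts and 8 were at 0 in both libraries. Of 7 endothelial markers, 1 reached 30 counts. The label of lung tissue is thus not matched by lung epithelial genes in either population.

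Each gene is described by its log2 ratio of 4N over 2N after TMM scaling, with an exact 95% interval that covers counting error only. Higher and lower thus refer to a gene's share of the scaled library, and RNA per cell was not measured. Of 55450 genes, 13364 reached 30 summed counts in at least 1 of the libraries. The first rule called a gene when its whole interval lay beyond 1.5-fold, and 160 genes were higher (1.2% of those tested) and 192 lower (1.44%) in 4N cells. The second rule also required a ratio beyond 2-fold, and 84 genes were higher (0.629%) and 131 lower (0.98%). The median ratio over all genes tested was 0.00 on the log2 scale. Of the 160 higher genes, 137 were protein-coding, and of the 192 lower genes, 82 were. The lower genes held 47 clustered histone genes and 60 genes of 2 uncertain biotypes, TEC and sense intronic. The higher genes held none of either.

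**Figure D1:**
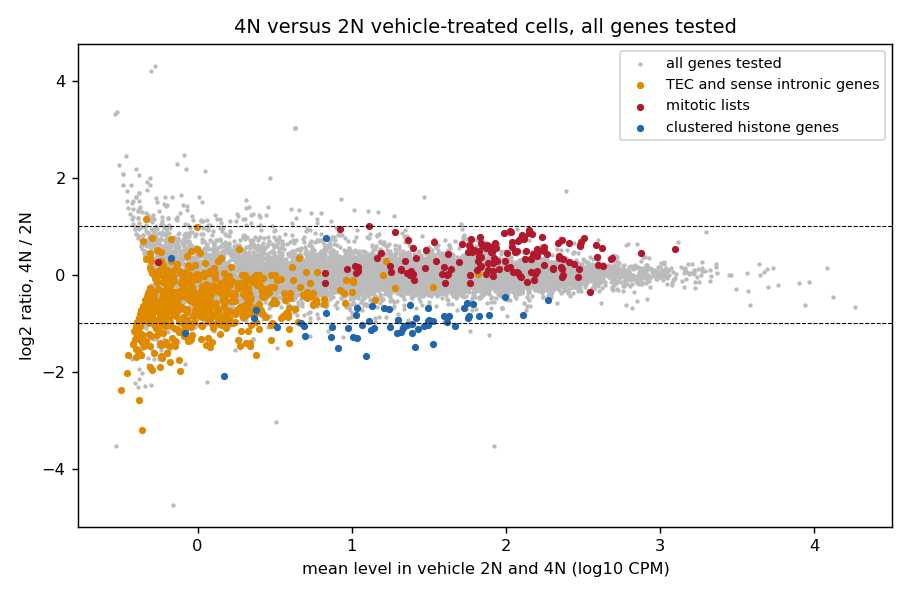
Each point is a gene tested, placed by its mean level in vehicle 2N and 4N cells (log10 CPM) and its log2 ratio of 4N over 2N, and dashed lines mark 2-fold. Genes of the mitotic lists (red) lie mostly above 0, and clustered histone genes (blue) and TEC and sense intronic genes (orange) lie mostly below it.

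Most genes of mitosis had higher levels in 4N cells. Across 6 lists that follow mitosis from entry to division, 147 genes were tested, 131 had a ratio above 0 and the median was 0.33. By the 1.5-fold rule 25 of the 147 genes (17.0%) were higher and 0 were lower, against 1.2% and 1.44% of all genes, and 1 passed 2-fold. Of these genes 131 had whole counts, and among them the median was 0.34 and 23 were higher.

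The promoters of these genes are shown first, as 5 of the higher genes with different roles. Motifs were searched on both strands in RefSeq windows of 300 bases, 250 before and 50 after the start, and the 130 bases before the start are printed in the sense of the gene, with CCAAT (or ATTGG, the same box on the other strand) and TTTGAA in capitals. The build is GRCm38.p6. *Ccnb2* encodes cyclin B2 (chr9:70421555-70421684, minus strand), *Cdc20* the activator of the anaphase-promoting complex (chr4:118437344-118437473, minus strand), *Aurka* the kinase of the centrosome and spindle poles (chr2:172370571-172370700, minus strand), *Hmmr* a spindle protein (chr11:40733438-40733567, minus strand) and *Plk1* the kinase of mitotic entry and exit (chr7:122159305-122159434, plus strand).
Ccnb2: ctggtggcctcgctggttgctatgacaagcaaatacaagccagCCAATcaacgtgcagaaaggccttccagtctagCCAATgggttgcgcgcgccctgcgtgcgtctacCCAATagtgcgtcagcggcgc
Cdc20: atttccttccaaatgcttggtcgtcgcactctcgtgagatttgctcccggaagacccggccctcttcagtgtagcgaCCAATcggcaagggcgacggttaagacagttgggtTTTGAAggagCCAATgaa
Aurka: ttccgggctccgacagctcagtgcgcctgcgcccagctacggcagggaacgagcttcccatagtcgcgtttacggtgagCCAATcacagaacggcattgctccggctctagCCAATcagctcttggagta
Hmmr: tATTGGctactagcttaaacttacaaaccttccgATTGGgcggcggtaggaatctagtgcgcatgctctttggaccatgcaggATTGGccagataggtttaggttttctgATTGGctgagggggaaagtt
Plk1: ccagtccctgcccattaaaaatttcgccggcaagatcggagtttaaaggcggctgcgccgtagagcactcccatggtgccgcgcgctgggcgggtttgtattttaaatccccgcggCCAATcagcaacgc
*Ccnb2* held 3 CCAAT boxes, whose first bases lie 87, 54 and 21 bases before the start. *Cdc20* held boxes at 53 and 8 bases before the start, with TTTGAA at 18 between them. *Aurka* held boxes at 51 and 19, and *Hmmr* at 129, 96, 47 and 20 in the printed stretch. *Plk1* held a box at 14. TTTGAA also lay outside the printed stretch, beginning at base 31 after the start in *Plk1*, 33 in *Aurka*, 9 in *Hmmr* and 5 in *Ccnb2*, which held another 167 bases before it.

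Of the 25 higher mitotic genes, 23 were matched to 26 promoter windows. Of these windows, 22 (84.6%) held CCAAT and 19 (73.1%) held TTTGAA. Among windows of all tested mitotic list members the shares were 61.2% and 42.2%, and among all 32817 promoter windows they were 37.4% and 17.9%. In 14 of the 26 windows (53.8%) CCAAT occurred 2 or more times, against 11.7% of all windows. For the 53 windows of replication genes, a list that had no gene called, the shares were 56.6% for CCAAT and 11.3% for TTTGAA. These matches are letters in a window and do not show binding.

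Mitotic entry is driven by CDK1 with cyclin B and by the kinases that activate it. Of 23 genes tested, 19 had a ratio above 0, the median was 0.39 and 5 were higher by the 1.5-fold rule. *Plk1* had 5383 counts (96.8 CPM) in 2N and 10666 counts (183 CPM) in 4N cells. Its 3 columns, which are parts of 1 library, lay between 1779 and 1811 in 2N and between 3416 and 3663 in 4N cells. The log2 ratio of *Plk1* was 0.92 (0.87 to 0.97). *Ccnb2* had 13.5 and 24.9 CPM (0.88, 0.76 to 1.01). *Ccnb1*, which encodes cyclin B1, had 106 and 191 CPM (0.84, 0.80 to 0.89), but 23.4% of its 50-mers also lie in other genes and its count is less certain. *Aurka* had 92.6 and 163 CPM (0.81, 0.76 to 0.86). The fifth was *Cdc25c*, the phosphatase that activates CDK1, with 977 and 1672 counts (0.71). *Cdk1* itself had 143 and 211 CPM, a ratio of 0.57 (0.53 to 0.61), whose interval reached below 1.5-fold. The lowest members lay below 0. *Cdc25a*, a phosphatase of CDK2, had a ratio of -0.17, *Pkmyt1*, a kinase that holds CDK1 inactive, -0.17, and *Mybl2*, a transcription factor of the mitotic program, -0.15.

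Among 19 genes of anaphase and its ubiquitin ligase APC/C, 18 lay above 0 with a median of 0.21, and the 2 higher genes were the activator *Cdc20* (76.0 and 139 CPM, 0.87, 0.82 to 0.92) and the ubiquitin-conjugating enzyme *Ube2c* (96.3 and 164 CPM, 0.77, 0.72 to 0.81). The securin gene *Pttg1* had a ratio of 0.68 (0.58 to 0.77). The lowest members were the APC/C subunits *Anapc11* at -0.02, *Cdc16* at 0.04 and *Anapc2* at 0.08. The interval lay above 0 for 16 of the 19 genes.

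Kinetochores join chromosomes to the spindle, and the checkpoint proteins on them delay anaphase until all are attached. Of 33 genes, 31 had a ratio above 0, the median was 0.39 and 4 were higher by the 1.5-fold rule. The highest was *Cenpa*, the histone variant of centromeres, with 69.1 CPM in 2N and 126 CPM in 4N cells (0.86, 0.81 to 0.92). *Bub1b*, a checkpoint kinase-like protein, had 92.7 and 154 CPM (0.73). The kinetochore motor *Cenpe* had 175 and 287 CPM (0.71), and *Cenpf*, a large kinetochore protein, had 238 and 378 CPM (0.67). The lowest members were *Cenpk*, a subunit of the inner kinetochore, at -0.17, and 3 subunits of the Mis12 complex of the outer kinetochore, *Nsl1* at -0.12, *Mis12* at 0.02 and *Dsn1* at 0.02.

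The spindle genes had the highest median of the 6 mitotic lists, 0.49, with 33 of 34 genes above 0 and 10 higher by the 1.5-fold rule. *Psrc1*, which binds spindle microtubules, was the mitotic gene that passed 2-fold, with 476 counts (8.56 CPM) in 2N and 1000 counts (17.2 CPM) in 4N cells and a ratio of 1.00 (0.85 to 1.17). *Nusap1*, a microtubule-bundling protein, had 74.4 and 138 CPM (0.89), *Hmmr* 100 and 182 CPM (0.86), and *Aspm*, a protein of the spindle poles, 127 and 218 CPM (0.78). The other called genes, with ratios from 0.65 to 0.77, included the kinesin *Kif2c*, which depolymerizes microtubules. The lowest members were *Haus5* at 0.00, *Haus2* at 0.01 and *Haus7* at 0.02, subunits of augmin, which adds branches to the spindle. Another augmin subunit, *Haus8*, was at 0.34 (0.20 to 0.48).

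Of 19 cytokinesis genes, 16 lay above 0, the median was 0.33 and 4 were higher. They were *Arhgef39* (0.94, 0.74 to 1.14), *Prc1*, which bundles the central spindle (239 and 403 CPM, 0.75), the kinesin *Kif23* of the same structure (0.73) and *Ect2*, the exchange factor that starts the furrow (0.66). *Sept9*, a septin that is also part of the cytoskeleton between divisions, had a ratio of -0.36 that did not pass the rule. Of 20 genes of condensin and chromosome structure, 0 were called and the median was 0.10. *Top2a*, which untangles DNA, had 1020 and 1462 CPM (0.52, 0.50 to 0.53), and *Mki67*, the coat of mitotic chromosomes and a marker of cycling cells, had 641 and 870 CPM (0.44, 0.42 to 0.46). The cohesin subunit *Smc3* (-0.11) and the cohesin loader *Nipbl* (-0.05) lay just below 0.

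**Figure D2:**
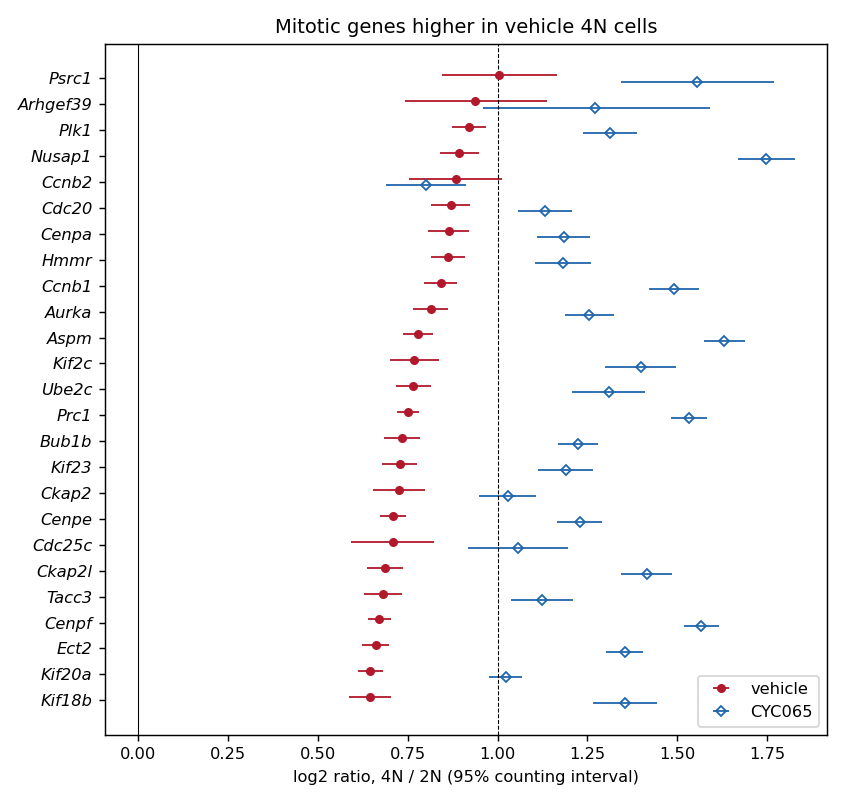
Log2 ratios of 4N over 2N for the 25 mitotic genes called higher in vehicle-treated cells, with exact 95% counting intervals, in vehicle (red circles) and CYC065 (blue diamonds). The vehicle ratios run from 0.65 to 1.00, and the CYC065 ratio is the larger for every gene except *Ccnb2*.

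The 4N/2N ratio of the CYC065-treated cells rests on other libraries and shares no sample with that of the vehicle-treated cells. For 134 of the 147 mitotic genes it was the larger one, with a median of 0.85 against 0.33. *Nusap1* had 1.75 with CYC065 and 0.89 with vehicle, and *Cenpf* had 1.57 and 0.67. *Ccnb2* was at 0.80 and 0.88, with overlapping intervals. The level with vehicle was above that with CYC065 for 133 of the 147 genes in 2N cells and for 133 in 4N cells. In 2N cells *Plk1* had 96.8 CPM with vehicle and 34.1 CPM with CYC065, while *Ccnb2* was among the exceptions, with 13.5 and 17.7 CPM. The APC/C list had nearly the same median under both treatments, 0.26 and 0.21. Even so, 13 of its 19 genes had the larger ratio with CYC065. By the 1.5-fold rule 6 were higher with CYC065 and 2 with vehicle. With 1 library per condition, these differences between treatments were not tested.

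Genes of G1, S phase entry and replication differed little. Among 25 genes of G1/S cyclins and E2F factors, the median was 0.04, 15 lay above 0 and 1 was called, *Cks2*, a CDK-binding subunit that also acts in mitosis (45.8 and 72.3 CPM, 0.66, 0.59 to 0.73), with 29.7% of its 50-mers found elsewhere. The lowest members were *E2f2* at -0.51 (-0.68 to -0.34) and *E2f1* at -0.37 (-0.43 to -0.31), both activating E2F factors, then *Cdk2*, the kinase of the E cyclins, at -0.27 (-0.35 to -0.19) and *E2f3*, a further activating factor, at -0.25 (-0.33 to -0.17). The intervals of these 4 genes lay below 0, but none passed the rule. Both E cyclins were even between the populations. *Ccne1* had 55.6 CPM in 2N and 54.2 CPM in 4N cells, and *Ccne2* had 37.0 and 35.5 CPM. *Ccnd1*, the D cyclin that answers growth signals, was at 636 and 732 CPM (0.20).

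Of 51 genes of replication licensing and synthesis, 0 were called, 35 had a ratio below 0 and the median was -0.05. *Cdc6*, which loads the replicative helicase, had 79.0 CPM in 2N and 56.6 CPM in 4N cells (-0.48, -0.55 to -0.42). The helicase subunit *Mcm3* had 326 and 259 CPM (-0.33), the DNA ligase *Lig1* had -0.31 and the licensing factor *Cdt1* had -0.29. *Pcna*, the sliding clamp of DNA polymerase, had 396 and 347 CPM (-0.19). The highest members were *Rpa3* at 0.21 and *Rrm2*, a subunit of ribonucleotide reductase, at 0.19. With CYC065, 46 of the 51 genes lay above 0, with a median of 0.31.

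**Figure D3:**
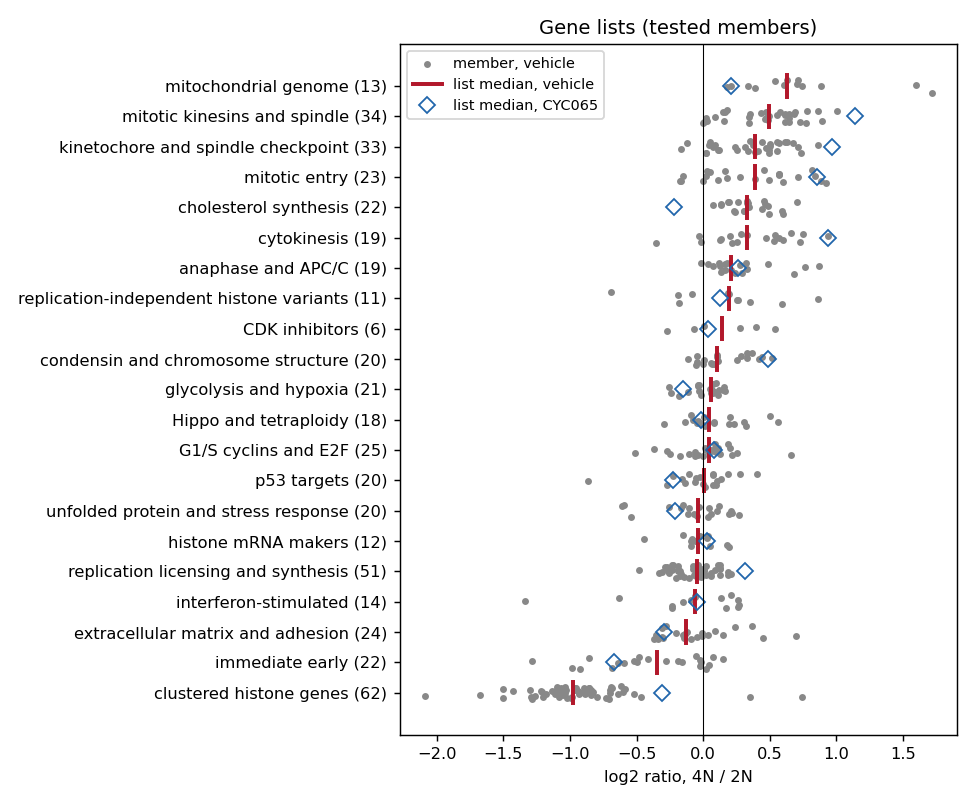
Log2 ratios of 4N over 2N in vehicle-treated cells for each tested member of a list other than the cell type markers (grey), with the list median (red bar) and the median of the same members in CYC065-treated cells (blue diamond), and the number of members in brackets. Of the lists plotted, clustered histone genes have the lowest median (-0.97), and the mitochondrial genome (0.63) and the spindle genes (0.49) the highest.

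Clustered histone genes were lower in 4N cells. Of 70 such genes, 62 were tested, 60 had a ratio below 0 and the median was -0.97. By the 1.5-fold rule 47 of the 62 were lower, and by the 2-fold rule 28 were, against 1.44% and 0.98% of all genes. These genes resemble each other, with a median of 51.0% of their 50-mers in other genes, and RSEM divides such reads, so they are given as sums over each class, which do not depend on the division within it. The 6 linker histone genes of class H1, which bind DNA between nucleosomes, summed to 10919 counts (196 CPM) in 2N and 5800 counts (99.7 CPM) in 4N cells, a ratio of -0.98 (-1.03 to -0.93). H2A genes summed to 406 and 205 CPM (-0.99), H2B genes to 329 and 186 CPM (-0.82), H3 genes to 580 and 307 CPM (-0.92) and H4 genes to 776 and 473 CPM (-0.71). Each class was thus lower in the 4N library, H4 least, while the intervals of H2A (-1.02 to -0.95) and H1 overlapped. Summed over all classes the ratio was -0.85 with vehicle and -0.28 with CYC065. With CYC065, 54 of the 62 genes lay below 0 with a median of -0.31, and 4 were lower by the 1.5-fold rule. The difference between treatments was not tested.

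The 4 clustered histone genes with whole counts in all columns and at least 100 counts were lower as well. *Hist1h1b* had 622, 599 and 612 counts in the 2N columns and 306, 329 and 312 in the 4N columns, a ratio of -1.02 (-1.13 to -0.91). *Hist1h1a* was at -1.04, *Hist2h4* at -0.95 and *Hist4h4* at -0.90, genes singled out here for their whole counts. Among genes with divided reads, *Hist1h2bq* had -1.68, *Hist1h4j* -1.50 and *Hist1h3h* -1.50. *Hist1h2br* had a ratio of 0.74 (0.53 to 0.96), but 88.7% of its 50-mers lie in other genes, and its value moved between 0.43 and 1.09 when single columns were left out. For the H1 genes *Hist1h1a* (chr13:23763538-23763667, plus strand) and *Hist1h1b* (chr13:21780626-21780755, minus strand), the 130 bases before the start are printed with CCAAT or ATTGG and TATAAA in capitals.
Hist1h1a: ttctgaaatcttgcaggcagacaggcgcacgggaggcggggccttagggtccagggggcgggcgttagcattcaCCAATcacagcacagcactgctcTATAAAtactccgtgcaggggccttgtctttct
Hist1h1b: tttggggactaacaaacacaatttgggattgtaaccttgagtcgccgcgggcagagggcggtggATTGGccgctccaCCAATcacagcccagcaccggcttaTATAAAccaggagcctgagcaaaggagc
*Hist1h1a* held CCAAT at 56 and TATAAA at 33 bases before the start, and *Hist1h1b* held boxes at 66 and 53 and TATAAA at 28. Of 56 promoter windows of tested clustered histone genes, 48 (85.7%) held CCAAT and 31 (55.4%) held TATAAA, against 37.4% and 13.6% of all windows. The TATAAA letters were in 1 of the 26 windows of the higher mitotic genes (3.85%). TTTGAA was in 27 of the 56 histone windows (48.2%) and in 12 of the 15 windows of H2B genes (80.0%), so both CCAAT and TTTGAA were more frequent than in all windows in the histone genes as in the higher mitotic genes, though these groups lay on opposite sides of 0.

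The 12 tested genes of histone mRNA transcription and processing had a median of -0.04 and 0 were called, and the lowest, *Zfp473*, had few counts and a wide interval (-0.44, -1.18 to 0.28). *Slbp*, which binds the stem-loop at the end of histone messages, had 102 and 91.6 CPM (-0.15, -0.21 to -0.10), and *Npat*, the factor of histone locus bodies, was at -0.09. A further list was drawn up for histone variants made outside S phase, and the timing of each member was not checked. Its 11 tested genes had a median of 0.20. They ran from *Hist3h2a* at -0.69 (-0.83 to -0.56), which is also counted among the clustered H2A genes, and *H2afx* at -0.19 to *H1f0*, a linker histone, at 0.59 (0.55 to 0.63) and *Cenpa*, given above.

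Unsorted vehicle-treated cells stood above both sorted populations in histone messages. Scaled with the sorted vehicle libraries, the 70 genes together had 7807 CPM in unsorted, 2194 CPM in 2N and 1220 CPM in 4N cells. The unsorted level was 3.56 times that of 2N and 6.40 times that of 4N cells. All 47 called histone genes were above both sorted libraries in unsorted cells. Of the other 145 lower genes, 57 were above both, 31 below both and 57 between them. Of all 13364 genes, 2047 lay between the sorted libraries, 5422 above both and 5895 below both. The interval of the 4N/2N ratio lay above 0 for 3659 of the 13364 genes and below 0 for 3534. For the remaining genes the span between the sorted levels lay within counting error. Unsorted cells can also hold cells outside both gates. These counts therefore cannot show whether the unsorted library is a mixture of the sorted populations.

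**Figure D4:**
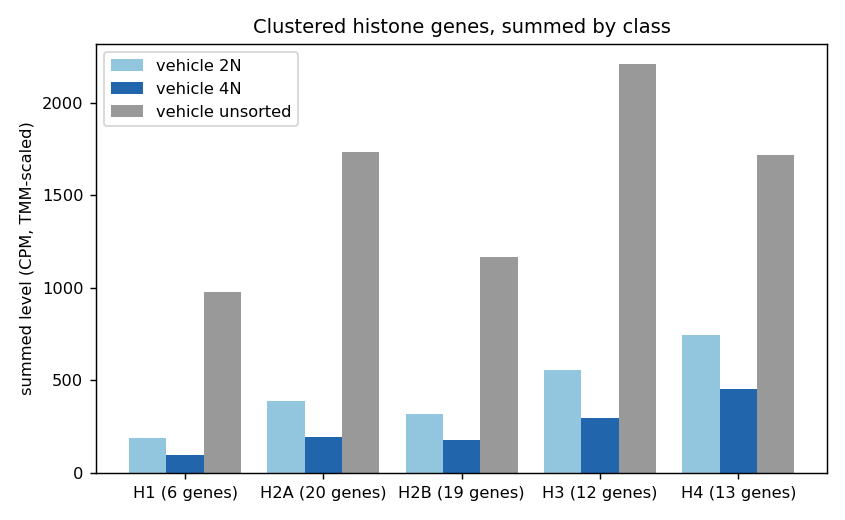
Summed level of the clustered histone genes of each class (CPM, TMM-scaled over the 3 vehicle libraries) in vehicle 2N, 4N and unsorted cells, 1 library each. In every class the 4N bar is the lowest and the unsorted bar the highest.

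Genes within introns were lower in 4N cells too, a group noticed after values were seen. TEC genes are short models with little evidence, and sense intronic genes lie inside an intron of another gene. Of 500 TEC genes tested, 445 had a ratio below 0 and the median was -0.53. By the 1.5-fold rule 51 were lower (10.2%) and 0 were higher, against 1.44% and 1.2% of all genes. Of 68 sense intronic genes, 62 were below 0 and 9 were lower (13.2%). Of the 2 biotypes, 449 genes lay wholly within an intron of a tested protein-coding gene on the same strand. Their median was -0.65 and 54 were lower, while their 338 host genes had a median of -0.02 and 0 were lower, and 402 of the 449 were below their host. The 119 remaining genes of these biotypes had a median of -0.28, and 6 were lower. In CYC065-treated cells the median of the 449 genes was 0.12. These genes have few counts, which widens each interval.

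Of the 12 lowest genes with whole counts and at least 100 counts, 8 were TEC and 2 sense intronic genes, and the others were *Gm43813* and *Egr2*. *Gm45205*, a TEC gene on chromosome 7, had 201 counts in the 2N and 67 in the 4N library (-1.65, -2.07 to -1.25). *Gm37084*, in an intron of *Mapkapk2*, had 316 and 124 counts (-1.42), while *Mapkapk2* was at -0.05. *Gm37738*, in an intron of *Trip12*, was at -1.41 and its host at -0.09. *Gm48027*, in an intron of *Arid4b*, was at -1.22 and its host at -0.03. Of 3 long RNAs that stay in the nucleus, also chosen after their values were seen, *Malat1* had 5410 and 4557 CPM (-0.25) and *Neat1* was at -0.36, closer to 0 than the median of the intronic genes. *Kcnq1ot1* was at -0.66 (-0.70 to -0.61), beyond 1.5-fold and near that median. The summed small nuclear RNA genes had a ratio of -0.48 and the summed small nucleolar RNA genes -0.46. Whether the share of unspliced or nuclear RNA differed between the libraries was not tested.

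**Figure D5:**
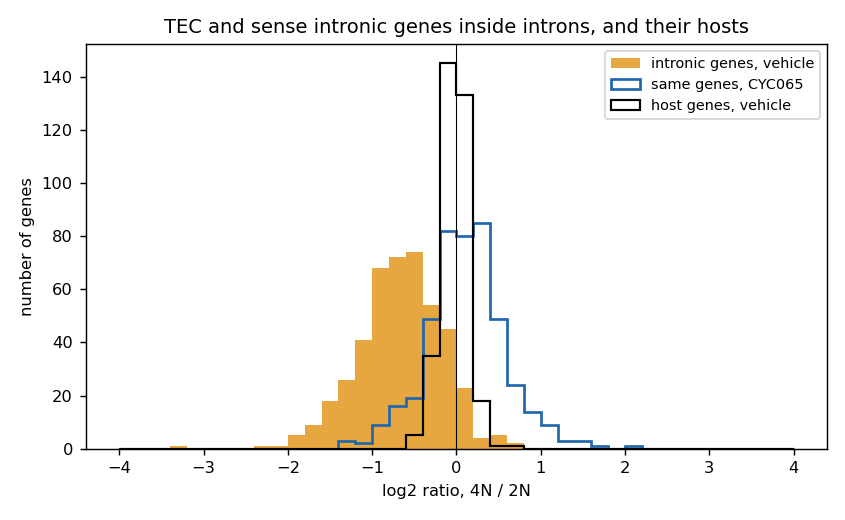
Number of genes by log2 ratio of 4N over 2N, in bins of 0.2, for the 449 TEC and sense intronic genes inside introns in vehicle (filled) and CYC065 (blue line), and for their 338 host genes in vehicle (black line). The vehicle distribution is centred at -0.65, the CYC065 one at 0.12 and the hosts at -0.02.

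Mitochondrial transcripts were higher in 4N cells. All 13 protein-coding genes of the mitochondrial genome had a ratio above 0, with a median of 0.63. By the 1.5-fold rule 8 were higher (61.5%), against 1.2% of all genes. Summed, the 13 genes had 3371 CPM in 2N and 5837 CPM in 4N cells, a ratio of 0.79. *mt-Nd5*, a subunit of complex I with whole counts, had 0.71 (0.68 to 0.74). *mt-Co1*, a subunit of cytochrome c oxidase, had 0.89 (0.87 to 0.90), and *mt-Nd4*, another subunit of complex I, had 0.71, but 51.1% and 62.2% of their 50-mers lie in other genes and their counts were fractional. Among the genes with whole counts the median was 0.57. *mt-Co3* (1.72) and *mt-Co2* (1.60) have hardly a 50-mer of their own and their columns disagreed. The sum includes both, and whether the genes that share their 50-mers lie within it was not tested. The median of the genes with whole counts leaves both out. *mt-Nd6*, which is read from the other strand, was at 0.21 (0.04 to 0.37) and *mt-Atp8* at 0.39. Mitochondrial transcripts made up 0.380% of counts in 2N, 0.614% in 4N and 1.04% in unsorted cells, so both sorted libraries were below the unsorted one.

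Immediate early genes, which answer growth factors and stress within minutes, mostly had lower levels in 4N cells. Of 22 genes tested, 18 had a ratio below 0 and the median was -0.35. By the 1.5-fold rule 5 were lower (22.7%), against 1.44% of all genes. *Egr2*, a zinc finger factor, had 237, 223 and 233 counts in the 2N columns and 99, 96 and 103 in the 4N columns (-1.28, -1.48 to -1.09). *Fos*, a subunit of AP-1, had 18.7 and 9.48 CPM (-0.98), *Egr3* 30.3 and 15.9 CPM (-0.93), *Egr1* 7251 and 4187 counts (-0.86) and *Ier2* 5481 and 3577 counts (-0.68). *Btg2*, an antiproliferative gene counted among the p53 targets, had 19.5 and 10.7 CPM (-0.87, -1.01 to -0.72) and was the 1 called gene of that list. Unsorted cells had 2.09 CPM of *Fos* and 4.84 CPM of *Btg2*, below both sorted populations. The list did not share this position, with 9 of the 22 immediate early genes below both sorted populations in unsorted cells and 7 above both. With CYC065, *Egr2* had a ratio of -1.24, *Fos* -1.06, *Egr3* -1.30, *Egr1* -1.18, *Ier2* -0.83 and *Btg2* -0.98. Of the 22 immediate early genes, 20 lay below 0 with CYC065, with a median of -0.67, and 12 were lower by the 1.5-fold rule. The difference between treatments in this list was not tested. *Gadd45b*, a stress gene of the same list, had 444 and 480 counts (0.05, -0.14 to 0.24) with vehicle.

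Genes of cholesterol synthesis had small ratios in favor of 4N cells. All 22 tested genes had a ratio above 0, with a median of 0.33, and the interval lay above 0 for 19. *Fdps*, which makes farnesyl diphosphate, passed the 1.5-fold rule with 30.6 CPM in 2N and 49.9 CPM in 4N cells (0.71, 0.62 to 0.79), with 26.2% of its 50-mers found elsewhere. *Nsdhl*, a later enzyme of the pathway, was at 0.60 and *Idi1*, the isomerase before *Fdps*, at 0.59. Both sorted populations were far under the unsorted level of *Fdps*, 178 CPM. With CYC065, 20 of the 22 genes lay below 0 with a median of -0.22, and this difference between treatments was not tested.

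Lists tied to tetraploidy and arrest differed little. The p53 targets had a median of 0.01, and *Cdkn1a*, the CDK inhibitor p21, had 28.8 CPM in 2N and 23.8 CPM in 4N cells (-0.27, -0.38 to -0.17). Of the other CDK inhibitors, *Cdkn2d* had 0.54 and *Cdkn1b* 0.40, and none of the 6 tested was called. The Hippo pathway, which restrains proliferation of tetraploid cells, had a median of 0.05 and 0 called genes. Its highest members were the YAP targets *Ccn2* with 140 and 206 CPM (0.56, 0.52 to 0.60) and *Ankrd1* with 0.50, followed by *Amotl2*, an angiomotin that binds YAP, with 0.32 and the YAP target *Ccn1* with 0.30. Unsorted cells had 81.4 CPM of *Ccn2* and 48.6 CPM of *Ankrd1*, below both sorted populations. Interferon-stimulated genes (-0.06), glycolysis and hypoxia genes (0.06) and genes of the unfolded protein response (-0.04) had medians near 0, with 0 called in each. Extracellular matrix and adhesion genes had a median of -0.13, with the collagens *Col6a2* (-0.37), *Col5a1* (-0.36) and *Col6a3* (-0.34) lowest. Of the mesenchymal markers 1 was called, *Tagln*, an actin-binding protein of smooth muscle (7.56 and 14.2 CPM, 0.91, 0.74 to 1.08). The 1 called epithelial marker, *Ocln*, had 7 and 31 counts.

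The 12 highest genes with whole counts and at least 100 counts were at low levels and belonged to none of these lists. *Ly6c1*, a surface protein, had 23 counts in the 2N and 106 in the 4N library (2.14, 1.48 to 2.86), and 32.8% of its 50-mers are found elsewhere. Its ratio was 2.88 without the third column of each condition and 1.70 without the second. *Clca3a1* had 240 and 741 counts (1.56), with 24.1% shared. *Nefl*, the light neurofilament, had 408 and 1061 counts (1.31, 1.15 to 1.48), and *Actg2*, an actin of smooth muscle, had 479 and 1227 counts (1.29, 1.14 to 1.45). *Peg10*, an imprinted gene of retroviral origin, had 325 and 861 counts (1.34), and *Ppbp*, a chemokine, had 126 and 337 (1.35). The others were *Eps8l2* (1.40), *Tbx18* (1.37), *Tmod2* (1.33), *Avil* (1.27), *Rasgrp3* (1.27) and *Btn1a1* (1.25). The genes *Actg2*, *Avil* and *Tmod2* encode actin or proteins that bind it. With CYC065 the same genes had ratios between -1.11 and 0.08. In unsorted cells *Avil* had 0.498 CPM and *Ppbp* 0.189 CPM, below both sorted populations.

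Several of the largest ratios belong to genes whose reads RSEM divided, and these are uncertain. *Rpl35a-ps2* and 3 identical pseudogenes had a ratio of 3.02, but 1 of the 4N columns held 440 counts and the others 0.700 and 0.130. *Fyb*, an adaptor of immune cells, had 320 counts in the 2N and 41 in the 4N library (-3.03, -3.54 to -2.56), with fractional counts in most columns. *Gm26244*, a small nuclear RNA gene, had -3.53 with 88.7% of its 50-mers in other genes, and between -4.63 and -2.95 when single columns were left out. *Gm21985* had -2.21, with -3.13 to -1.68 on leaving out columns, and *Hist1h2ao* -2.09, with -3.41 to -1.07. Of the genes called, 117 of the 160 higher and 106 of the 192 lower ones had whole counts in all 6 columns.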

How the data were processed

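Total RNA was depleted of ribosomal RNA and sequenced as stranded paired-end libraries. Per the labels, the authors used cutadapt 1.18 for trimming, STAR 2.7.0f for alignment (build mm10) and RSEM 1.3.1 for counting, with GENCODE M21 as annotation. The methods of the study give a later RSEM version. The deposited values are expected counts per gene, not normalized. RSEM divides reads shared by similar genes, and 9.66% of genes have fractional values. These were rounded, and the 3 columns of a condition were summed. Over genes with fractional counts the columns differed by 6.60 (2N) and 8.07 (4N) times sampling noise (chi-square per degree of freedom), so intervals of such genes are too narrow.

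Libraries were scaled by TMM over the 4 sorted libraries (edgeR 4.0.16, R 4.3.3), or over the 3 vehicle libraries where unsorted cells were compared. Ratios and exact (Clopper-Pearson) intervals were computed in Python 3.11.15 with SciPy, and checked on simulated data. Intervals cover counting error only, and reads without molecular identifiers are not independent molecules. Ratios against 0 counts used a floor of 3 counts. Genes and lists were chosen with earlier results of these data known. Named genes were the 12 highest and 12 lowest called by the 2-fold rule with at least 100 counts and whole counts, the 4 highest and 4 lowest with fractional counts, the 4 highest and 4 lowest of each list (2 each per histone class), and a set of cell cycle genes. Remaining called members of lists with 5 or fewer called genes, *Ier2*, *Cdc25c* and *Ocln* among them, were named after their values were seen. So were *Kif2c*, *mt-Nd4*, *mt-Nd5*, *Haus8*, *Zfp473* and host genes of introns.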

Additional observations from a re-analysis of the deposited data

Results flagged for a closer look

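The ratio of 4N over 2N lay beyond 1.5-fold in opposite directions under the 2 treatments for 2 of the genes named. Of all 160 genes called higher with vehicle, 2 were called lower with CYC065. Of the 192 called lower with vehicle, 2 were called higher with CYC065. *Btn1a1*, which encodes a milk fat globule protein of the butyrophilin family, had 59 counts in vehicle 2N and 147 in vehicle 4N cells, a log2 ratio of 1.25 (0.81 to 1.71), against 284 and 154 counts with CYC065, a ratio of -1.11 (-1.40 to -0.82). *mt-Atp6*, a subunit of mitochondrial ATP synthase, had 0.74 (0.67 to 0.82) with vehicle and -0.74 (-0.81 to -0.66) with CYC065, but 99.5% of its 50-mers lie in other genes and its vehicle 4N columns ran from 199 to 2456 counts. The difference between the treatments was not tested for either gene, since each condition is 1 library.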

How the results depend on the processing

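Each population rests on 1 library, and intervals do not cover the spread between cultures. The 1.5-fold rule gave 160 higher and 192 lower genes and the 2-fold rule 84 and 131. The counts changed with filters and tests. With no filter on low counts, 289 genes were lower by the 1.5-fold rule, and 150 higher and 228 lower by the 2-fold rule. With at least 100 counts, 126 were lower by the first rule, and 46 higher and 65 lower by the second. Among genes with whole counts, 106 and 75 were lower. With a wider interval that leaves an error of 0.001, 89 were higher and 99 lower, and 39 and 61 by the 2-fold rule. Leaving out 1 replicate column from each condition gave 125 to 130 higher and 135 to 166 lower genes, and 58 to 65 and 86 to 117 by the 2-fold rule.

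Tests fitted to the 3 columns compare these libraries, not the populations. At an adjusted p under 0.05, edgeR's quasi-likelihood test without the block called 348 higher and 511 lower genes beyond 1.5-fold and 207 lower beyond 2-fold. With the replicate block the numbers were 349, 504 and 209. The columns are parts of 1 library, so the replicate numbers pair no cultures. DESeq2 called 255 and 335 beyond 1.5-fold. Where cultures were assumed to vary by a coefficient of 0.2 (edgeR), 9 higher and 7 lower genes were left by either rule, and with a coefficient of 0.1 the numbers were 156 and 203, and 80 and 129 beyond 2-fold. These counts do not say which genes they share.

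Medians were recomputed for 23 lists and biotypes, 17 of them added after the data were seen. Those of 4 lists near 0 changed sign under an alternative, namely p53 targets, interferon-stimulated genes, glycolysis and hypoxia, and the unfolded protein response. Among genes with whole counts the median was 0.27 for mitotic entry, 0.47 for cytokinesis, 0.31 for histone variants, 0.57 for the mitochondrial genome and -0.030 for glycolysis and hypoxia. With at least 100 counts it was 0.40 for cytokinesis and 0.14 for interferon-stimulated genes. Leaving out columns gave medians from -0.99 to -0.97 for clustered histone genes, 0.38 to 0.40 for mitotic entry, 0.38 to 0.40 for the kinetochore, 0.49 to 0.50 for the spindle, 0.03 to 0.05 for G1/S, -0.07 to -0.05 for replication, 0.38 to 0.41 for cytokinesis, -0.02 to 0.01 for p53 targets, 0.03 to 0.10 for interferon-stimulated genes and -0.08 to 0.02 for the unfolded protein response. Scaling by DESeq2 size factors moved all ratios by 0.03 on the log2 scale, which gave 181 higher and 170 lower genes by the 1.5-fold rule and a median of -0.092 for extracellular matrix genes, and the other scalings moved them by less. Among 219 named genes, *Rpl35a-ps2*, *Rpl35a-ps3*, *Rpl35a-ps4* and *Rpl35a-ps6* reversed when replicate 2 was left out (-5.50, up to 3.96 without another) and *mt-Atp6* when replicate 3 was left out (-0.33, up to 1.83), all with divided reads.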
